A study of Mus musculus with 8 samples.

Results

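The genes of the 4 Hox clusters were followed through 4 populations of mouse adult fibroblasts (MAFs), before and after recovery from cisplatin (CDDP). Members were all genes whose symbol in the array annotation was Hoxa, Hoxb, Hoxc or Hoxd with a number, each read by the brightest of its probe sets, on the mean of the 8 arrays. This gave 33 members of 18193 genes measured, with 9 in cluster A, 9 in cluster B, 7 in cluster C and 8 in cluster D. The RefSeq table lists 39 Hox genes, and those without a probe set that carried their symbol alone were not analysed here. The cells came from the peritoneal fascia of mice with a floxed Rb gene (Rb loxP/loxP). All 4 populations carried p53DD, a truncated form of p53 that blocks the cell's own p53, delivered by the retrovirus LXSN, so no population had normal p53 function. The GFP Naïve cells had received an adenovirus with GFP alone and kept RB, and the Cre Naïve cells had received one with GFP and Cre recombinase, which removes part of Rb. GFP Recurred and Cre Recurred cells are such populations after 24 h of CDDP and outgrowth without the drug. The cells infected with the retrovirus were selected and pooled. Whether the recurred outgrowths came from many cells or from few is not given in the sources used here. Each population was measured on 2 arrays that the labels call biological replicates.

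Hox proteins are homeodomain transcription factors that give cells along the head-to-tail axis and along the limbs their positional address. Within a cluster the genes stand in the order in which they are used along the body, from group 1, which acts in the hindbrain, to group 13, which acts in the tail, the distal limb and the urogenital tract. Adult fibroblasts keep the Hox pattern of their site of origin in culture, where Polycomb complexes hold the silent genes shut and trithorax complexes keep the active genes open.

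Signals are log2 values from the Robust Multichip Average (RMA), so a difference of 1 is a 2-fold change, and levels are compared only within a probe set. A gene was called at a difference of 1.5-fold or more with a limma adjusted p under 0.25, the thresholds of the study, and more strictly at an adjusted p under 0.05. The targeted gene matched the labels. The brighter of its probe sets, Rb1, measured 7.98 and 8.07 in GFP Naïve, 8.21 and 8.78 in GFP Recurred, 6.21 and 5.72 in Cre Naïve, and 4.98 and 5.45 in Cre Recurred cells. Of 12 fibroblast markers, all were above the array median on the 6 arrays of the other populations and 11 on each Cre Recurred array, the exception being Fap. All of these are bulk RNA samples, in which fewer cells of a type and less RNA per cell cannot be told apart. With 2 arrays a group, an exact permutation test cannot give a two-sided p below 0.333, so the calls rest on the spread that limma estimates from all 8 arrays.

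Of the 33 members, 22 had a mean signal above 5.4, the median over all probe sets, and 11 did not. The 11 were Hoxb1 and Hoxd1 of the first group, Hoxa2, Hoxd3, Hoxb7, Hoxd10, Hoxd11 and Hoxd12, and Hoxa13, Hoxb13 and Hoxd13 of the last group. A dim probe set does not show that a gene was off. Among the bright ones Hoxa9, which acts in the trunk and in blood progenitors, held between 10.02 and 10.53 on all 8 arrays. Hoxc9, a gene of the lower thorax, lay between 8.21 and 8.79, Hoxc6 between 7.92 and 8.52, and Hoxb2, which patterns the hindbrain, between 7.81 and 8.45. These genes varied little across RB status and recurrence. Other members varied much more, with a range over the 8 arrays of 2.59 for Hoxd9, 2.47 for Hoxc10, 2.38 for Hoxc8, 1.89 for Hoxa7 and 1.85 for Hoxa10. The map of Hox genes by array shows that the variable genes lay next to stable ones in the same cluster.

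**Figure D1:**
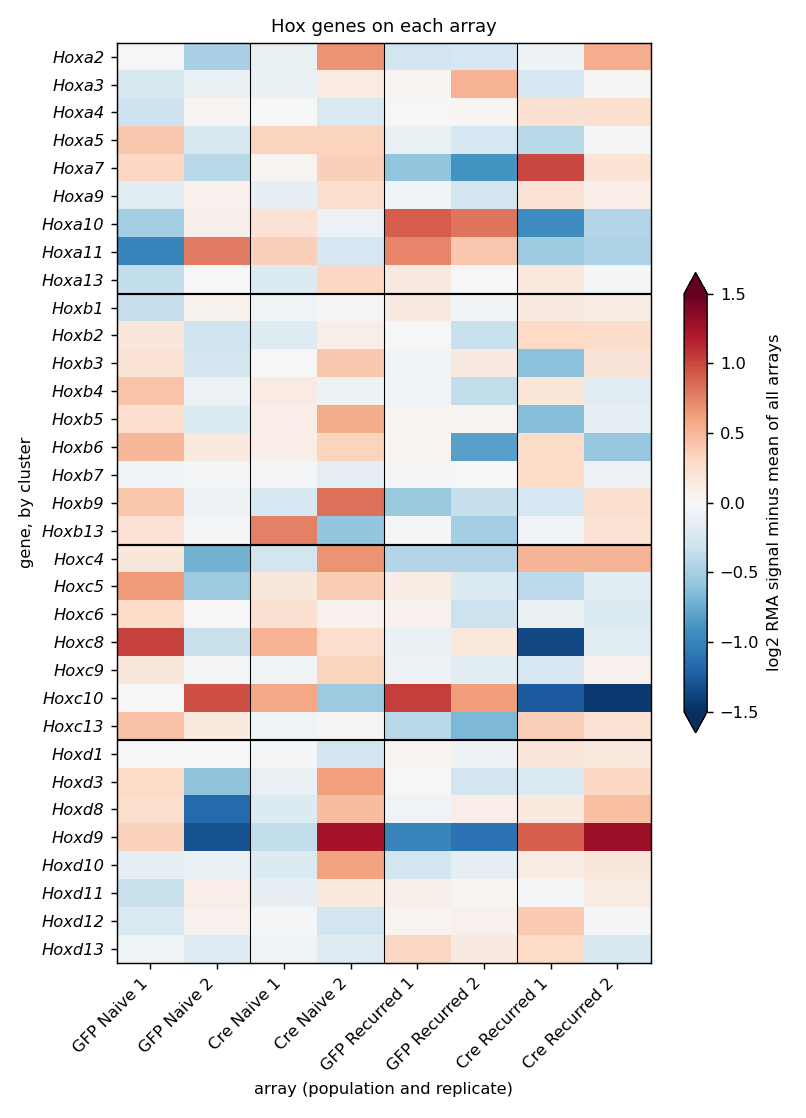
Each cell is the log2 RMA signal of a Hox gene (vertical, in cluster order) on an array (horizontal, population and replicate) minus that gene's mean over the 8 arrays, with red for higher and blue for lower. Hoxa10 and Hoxc10 are blue on both Cre Recurred arrays and red on both GFP Recurred arrays, and Hoxd9 is the reverse. Hoxa9 and Hoxc9 stay pale throughout, as does Hoxb7, whose probe set is dim.

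The recurred populations with and without RB are given first, because only this comparison held calls among the members in the main limma fit. Whether the recurrence effect differed by RB status is a separate comparison, given further below. Of the 33 members, 6 were called, which is 18.2% beside 11.4% of all genes in this comparison. Hoxa10 and Hoxc10 were lower in Cre Recurred cells (6.55% of all genes were called lower), and Hoxa7, Hoxc4, Hoxc13 and Hoxd9 were higher (4.81% of all genes were called higher). No member passed the stricter threshold with limma, which 1.1% of all genes did. In this comparison 6 members had an unadjusted p under 0.05, beside 20.7% of all genes. A SAM-type statistic, built after the method the study used, placed 6 members and 6.23% of all genes past the stricter threshold. These were not the same 6 as above, since Hoxa7 was at 0.07423 with this statistic. It rests on relabelling the arrays, and 2 arrays a group allow few relabellings. The median difference over the 33 members was 0.14 and over all genes 0.04, and 21 members (63.6%) were on the higher side, as were 56.7% of all genes. Within cluster A and within cluster C, called genes went opposite ways.

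Hoxa10, which patterns the lumbar region and the uterus, was lower without RB among recurred cells. It measured 10.07 and 9.97 in GFP Recurred cells and 8.23 and 8.73 in Cre Recurred cells. The naïve arrays lay between these, at 8.64 and 9.24 in GFP Naïve and 9.38 and 9.08 in Cre Naïve cells, apart from the lower GFP Naïve array, which fell among the Cre Recurred values. The difference was -1.55 on the log2 scale (SE 0.25, adjusted p = 0.05243), or 2.92-fold. Hoxa10 had a second probe set, which was dim at a mean of 3.37 and differed by -0.08.

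Hoxc10, a gene of lumbar level and of the hind limb, showed the larger difference. It measured 9.53 and 9.11 in GFP Recurred cells and 7.24 and 7.05 in Cre Recurred cells, 8.49 and 9.46 in GFP Naïve cells, and 9.07 and 7.94 in Cre Naïve cells. The Cre Recurred arrays were the lowest of the 8, and the second Cre Naïve array came next. The difference between the recurred populations was -2.17 (SE 0.43, adjusted p = 0.07409), or 4.51-fold.

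Hoxd9, which acts at lumbosacral level and in the limb, went the other way. It measured 8.36 and 8.76 in Cre Recurred cells and 6.47 and 6.36 in GFP Recurred cells. The naïve arrays spanned the whole range between them, with 7.81 and 6.17 in GFP Naïve cells and 7.10 and 8.72 in Cre Naïve cells. Hoxd9 was thus 4.43-fold higher in Cre Recurred than in GFP Recurred cells (2.15 on the log2 scale, SE 0.63, adjusted p = 0.155), while naïve replicates of the same population differed by 1.65 and 1.62.

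Hoxa7, a thoracic gene, measured 8.47 and 7.67 in Cre Recurred cells and 6.88 and 6.58 in GFP Recurred cells. The naïve arrays gave 7.78 and 7.05 with RB and 7.51 and 7.83 without it, above both GFP Recurred arrays. Its difference was 1.34 (SE 0.33, adjusted p = 0.1078), or 2.54-fold. Hoxc4, a gene of the neck and upper thorax, measured 7.63 and 7.64 in Cre Recurred cells and 6.68 and 6.69 in GFP Recurred cells, with 7.29 and 6.42 in GFP Naïve and 6.85 and 7.79 in Cre Naïve cells. The recurred replicates of Hoxc4 nearly coincided while the naïve ones were far apart. The fit, which shares the spread of all populations, gave it a difference of 0.95 (SE 0.36) with an adjusted p of 0.2464, just inside the threshold.

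Hoxc13, needed for hair and nail formation and the last gene of its cluster, was close to the median of all probe sets. It measured 6.01 and 5.85 in Cre Recurred cells, 5.23 and 4.98 in GFP Recurred cells, 6.09 and 5.80 in GFP Naïve cells, and 5.59 and 5.67 in Cre Naïve cells. The GFP Recurred arrays were the lowest of the 8. The difference was 0.82 (SE 0.16, adjusted p = 0.07074), or 1.77-fold.

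Hoxa11 and Hoxc8 differed by 1.5-fold without overlap of the recurred arrays but did not pass the test. Hoxa11, which builds the middle segment of the limb, measured 9.41 and 9.09 in GFP Recurred and 8.16 and 8.22 in Cre Recurred cells, with 7.69 and 9.45 in GFP Naïve and 9.04 and 8.42 in Cre Naïve cells. The GFP Naïve replicates of Hoxa11 thus spanned the other 6 arrays, and the difference of -1.07 (SE 0.51) had an adjusted p of 0.36. Hoxc8, a thoracic gene, measured 7.80 and 8.06 in GFP Recurred, 6.54 and 7.73 in Cre Recurred, 8.93 and 7.57 in GFP Naïve and 8.42 and 8.16 in Cre Naïve cells. Its difference was -0.79 (SE 0.50, adjusted p = 0.50). With these, 8 members differed by 1.5-fold without overlap, 4 in each direction, beside 14.5% of all genes. The plot of the 8 genes by population shows the scatter of the naïve arrays beside the recurred ones.

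**Figure D2:**
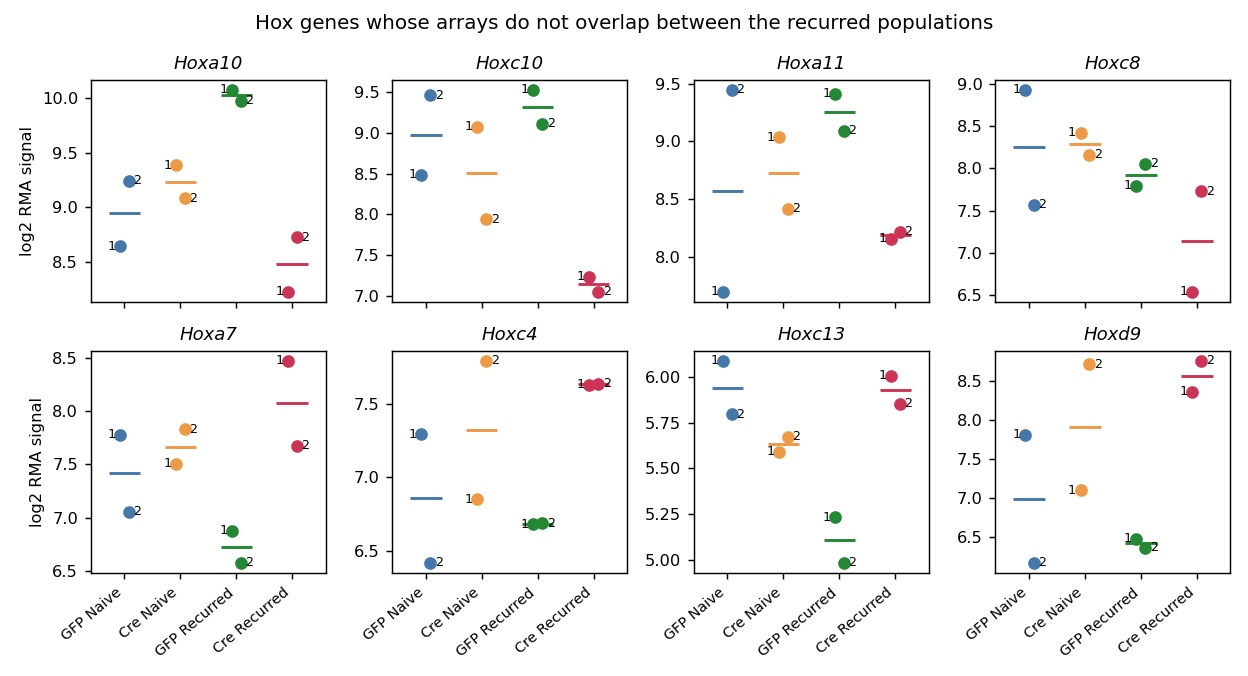
Log2 RMA signal (vertical) of the 8 Hox genes that differed by 1.5-fold or more without overlap between the recurred populations. Points are arrays, numbered by replicate, and bars are the means of 2 arrays. The upper genes are lower and the lower genes higher in Cre Recurred than in GFP Recurred cells, and the naïve replicates of Hoxa11 and Hoxd9 lie 1.75 and 1.65 apart in GFP Naïve cells.

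By position, cluster B held no call among its 9 members, whose differences ran from -0.44 to 0.46. Of these, 0 had an unadjusted p under 0.05 in limma, beside 20.7% of all genes. Cluster A held 2 calls among 9 members, cluster C 3 among 7 and cluster D 1 among 8. These counts are to be read beside the 11.4% of all genes called, and a difference by position was not tested. The calls fell on 2 of 19 members of groups 1 to 8, both higher, and on 4 of 14 members of groups 9 to 13. Of these 4, 2 were higher and 2 lower, beside 4.81% of all genes called higher and 6.55% lower. All 6 called members were among the 22 with a signal above the median. Calls lay mostly among bright probe sets in general. Fitted alone, the 22518 probe sets above the median gave 3699 calls, beside 3988 among all 45037. The other 27 members were not called. Without GFP Recurred replicate 1, without GFP Recurred replicate 2, or without Cre Recurred replicate 1, 0 of 33 members passed, beside 1.13%, 0.126% and 0.89% of all genes. Without Cre Recurred replicate 2, Hoxa7, Hoxa10, Hoxc10 and Hoxc13 passed, beside 14% of all genes. The log2 differences of the 6 called members kept their sign, which was fixed in advance because their recurred arrays do not overlap. Over these 4 settings Hoxc10 stayed between -2.38 and -1.96, Hoxa10 between -1.80 and -1.30, Hoxd9 between 1.95 and 2.34, Hoxa7 between 0.95 and 1.74, Hoxc13 between 0.70 and 0.95, and Hoxc4 near 0.95.

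Some cell type markers also differed between the recurred populations, to be read beside the 11.4% of all genes called. Of the others, 0 of 5 epithelial, 0 of 5 endothelial and 0 of 4 leukocyte markers were called. The summed log2 signal of the 12 fibroblast markers was 126.2 and 137.3 on the Cre Recurred arrays and between 135.1 and 142.0 on the others, with Fap (-2.39), Prrx1 (-1.05) and Dcn (-1.60) called lower and Thy1 (0.91) called higher than in GFP Recurred cells. Called or not, 11 of the 12 were on the lower side, with a median difference of -0.76, beside 0.04 over all genes. The summed signal of 8 mesothelial markers was 41.25 and 41.31 in Cre Recurred cells and between 35.89 and 38.16 elsewhere, with Msln, Krt19 and Krt7 called higher, while Upk3b stayed between 3.85 and 4.14 and Lrrn4 between 2.71 and 2.99. Of those 8, 2 were on the lower side between the recurred populations, the lowest at -0.40. Of 5 skeletal muscle markers, Des was called higher (1.65), and their median difference was 0.14. Of 3 adipocyte markers, Pparg was called lower (-2.34), while Fabp4 (0.89) and Adipoq (0.12) were on the higher side and not called. Cdh1, Pecam1, Ptprc and Adipoq were dim on every array, but other markers of their lists were not. On each array 1 of 5 epithelial, 1 of 5 endothelial and 2 of 4 leukocyte markers lay above the array median. Of the 3 adipocyte markers 2 did so, except on the second Cre Recurred array, where 1 did. The part of these markers in the Hox differences was not tested.

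Recurrence itself was then examined within each genotype. In RB-deficient cells, Cre Recurred against Cre Naïve, limma called 0 of 33 members, beside 1.65% of all genes. Here 5 members had an unadjusted p under 0.05, beside 14% of all genes (Hoxa5, Hoxa10, Hoxb5 and Hoxc10 with lower values and Hoxd1 with a higher one). Hoxd1 was dim, between 2.37 and 2.82 on all arrays, and differed by 0.31. The second Hoxa5 probe set differed by -0.06, beside -0.56 for the brighter. For the members no adjusted p was below 0.3355, and 0 were called by the SAM-type statistic. The median difference over the members was -0.01. Without overlap and by 1.5-fold, 4 members were apart, all on the lower side in Cre Recurred cells, beside 7.89% of all genes. These were Hoxc10 with -1.36 (SE 0.43, adjusted p = 0.34), Hoxc8 with -1.15 (SE 0.50, adjusted p = 0.42), Hoxa10 with -0.76 (SE 0.25, adjusted p = 0.35) and Hoxb5 with -0.72 (SE 0.24, adjusted p = 0.36). Hoxb5, which acts at shoulder level, measured 4.82 and 5.31 in Cre Recurred, 5.56 and 6.02 in Cre Naïve, 5.71 and 5.26 in GFP Naïve, and 5.5 and 5.5 in GFP Recurred cells, so it crossed the median of all probe sets. Leaving out Cre Naïve replicate 2 brought Hoxc10 past the thresholds, and leaving out Cre Recurred replicate 2 brought Hoxa10, Hoxb5 and Hoxc8 past them. The share of all genes called rose with these settings too, to 8.06% and 7.73%.

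In RB-proficient cells, GFP Recurred against GFP Naïve, limma called 0 of 33 members, beside 0.0165% of all genes. Hoxa10 (1.08, SE 0.25, adjusted p = 0.80) and Hoxc13 (-0.83, SE 0.16, adjusted p = 0.71) had an unadjusted p under 0.05, 2 members in all, beside 5.93% of all genes. The SAM-type statistic called these 2, and 1.2% of all genes. Both GFP Recurred arrays of Hoxa10 lay above all other arrays, and both of Hoxc13 below all others. Without overlap and by 1.5-fold, 5 members were apart, beside 4.07% of all genes, of which Hoxa10 was on the higher side and Hoxa7 (-0.69), Hoxb6 (-0.72), Hoxb9 (-0.62) and Hoxc13 on the lower side. The recurred comparison and both comparisons with naïve cells share their arrays, so a value of 1 recurred array enters several of them.

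In untreated cells, Cre Naïve against GFP Naïve, limma called 0 of 33 members, beside 0% of all genes. The targeted gene Rb1 itself, at -2.06 (SE 0.26, adjusted p = 0.9966), was not called in these cells. A count of 0 therefore does not show that Hox genes were unaffected by RB loss. In this comparison 0 members had an unadjusted p under 0.05, beside 2.45% of all genes, 0 were called by the SAM-type statistic, and no adjusted p was below 0.9966. The largest difference was 0.92 for Hoxd9, the 1 member apart by 1.5-fold, and 0 members were apart by that much without overlap of arrays, beside 1.54% of all genes. For the difference of the recurrence effects between genotypes, limma called 0 of 33 members, beside 0.539% of all genes. Here 3 members had an unadjusted p under 0.05, beside 12.4% of all genes, with -1.83 for Hoxa10 (adjusted p = 0.27), -1.71 for Hoxc10 (adjusted p = 0.42) and 1.13 for Hoxc13 (adjusted p = 0.27). This difference had no SAM-type test. Leaving out an array changed the count, which was 3 without GFP Naïve replicate 2 (Hoxa10, Hoxa11 and Hoxc13), 3 without Cre Naïve replicate 2 (Hoxa10, Hoxc10 and Hoxc13) and 3 without Cre Recurred replicate 2 (Hoxa7, Hoxa10 and Hoxc13). Over all genes the share called was 1.14%, 4.86% and 8.1% in these settings. The plot of differences in cluster order sets the comparisons side by side.

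**Figure D3:**
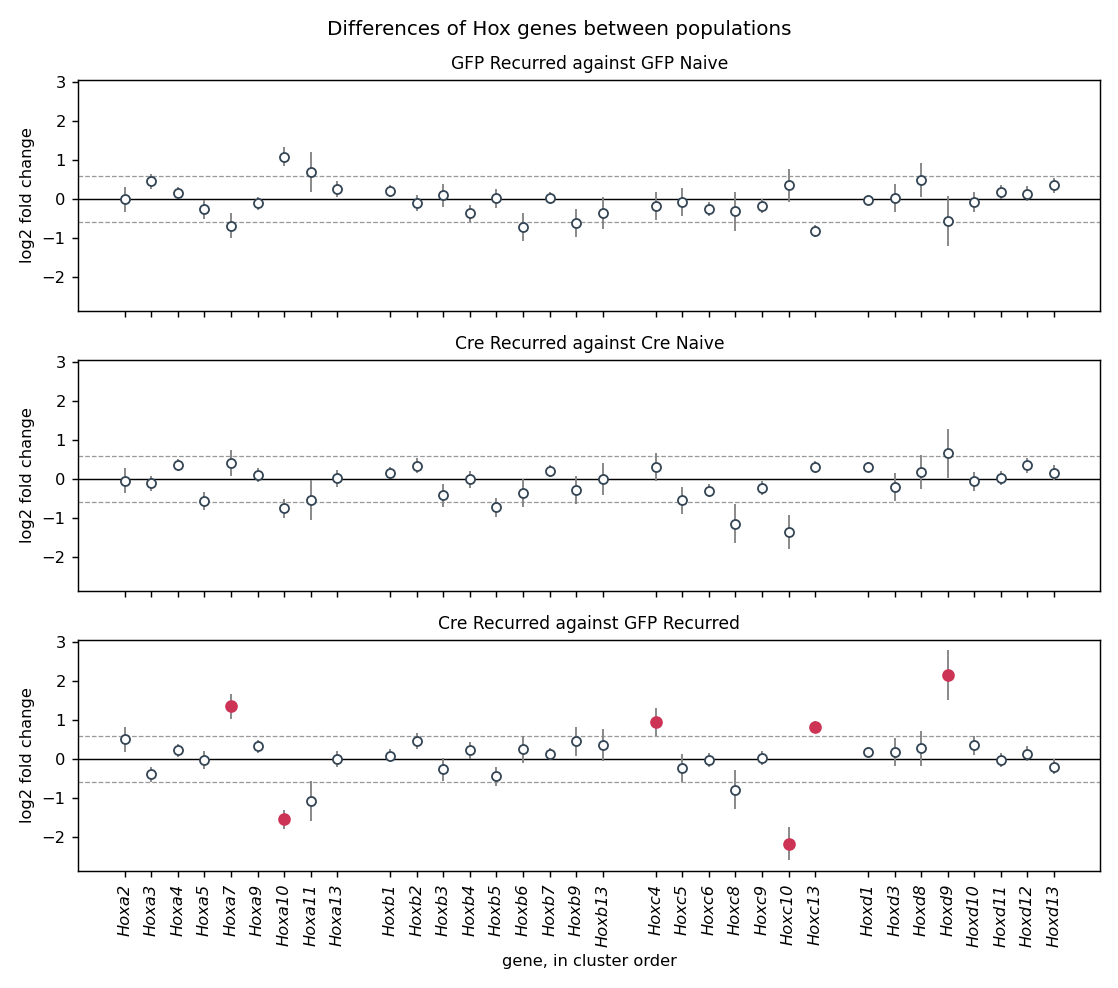
Log2 fold change (vertical) of each Hox gene in cluster order (horizontal) for 3 comparisons, with bars of 1 standard error from limma and dashed lines at 1.5-fold. Filled points passed 1.5-fold and an adjusted p under 0.25, and only the comparison of Cre Recurred with GFP Recurred cells holds any, 6 in number.

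Replicates of the naïve populations differed from each other in many Hox genes. Between the 2 GFP Naïve replicates, 11 of 33 members (33.3%) differed by 1.5-fold or more, beside 9.52% of all genes. Replicate 2 was higher in Hoxa10, Hoxa11 and Hoxc10 and lower in Hoxa5, Hoxa7, Hoxc4, Hoxc5, Hoxc8, Hoxd3, Hoxd8 and Hoxd9. Between the 2 Cre Naïve replicates 10 members (30.3%) did so, beside 12% of all genes. There replicate 2 was lower in Hoxa11, Hoxb13 and Hoxc10 and higher in Hoxa2, Hoxb9, Hoxc4, Hoxd3, Hoxd8, Hoxd9 and Hoxd10. The GFP Recurred replicates differed in 1 member (3.03%), Hoxb6, beside 3.53% of all genes, and the Cre Recurred replicates in 5 (15.2%), namely Hoxa2, Hoxa7, Hoxb3, Hoxb6 and Hoxc8, beside 9.46% of all genes. These shares describe single pairs of arrays and were not tested.

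Of the 6 genes called between the recurred populations, all but Hoxc13 also differed by 1.5-fold between replicates of a naïve population. Hoxd9 on the second naïve arrays was 8.72 without RB and 6.17 with RB, a difference of 2.55, beside 2.15 between the recurred populations. On the first naïve arrays it went the other way, by -0.71. Hoxc10 differed by -1.51 between the second naïve arrays and by 0.58 between the first, and Hoxc4 by 1.37 and by -0.44. Over the 6 called members, the second naïve arrays differed in the direction of the recurred populations in 5, all but Hoxc13, and the first naïve arrays in 0. Over the 2066 genes called between the recurred populations these shares were 70.4% and 30.4%. The labels do not tie a replicate number to the same cells across populations. Crossing the numbers gave 4 of 6 members in each case, beside 37.8% and 68.6% of the called genes.

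The promoters of the called members were read from RefSeq because CpG-rich starts are the usual seat of Polycomb at Hox genes. The RefSeq table held windows for 19 of the 33 members, 21 windows in all, and for 4 of the 6 called members (Hoxa7, Hoxa10, Hoxc4 and Hoxd9). The windows shown are the 250 bases before the annotated start on GRCm38.p6, on the strand of the gene, with each CpG in capitals. Hoxa10 has a pair of starts, of which the first shown lies at chr6:52234940-52235189 on the minus strand and the second at chr6:52240855-52241104 on the minus strand. Hoxa7, in the same cluster and called the opposite way, starts at chr6:52218574-52218823 on the minus strand, and Hoxd9 at chr2:74697513-74697762 on the plus strand.
Hoxa10, first window: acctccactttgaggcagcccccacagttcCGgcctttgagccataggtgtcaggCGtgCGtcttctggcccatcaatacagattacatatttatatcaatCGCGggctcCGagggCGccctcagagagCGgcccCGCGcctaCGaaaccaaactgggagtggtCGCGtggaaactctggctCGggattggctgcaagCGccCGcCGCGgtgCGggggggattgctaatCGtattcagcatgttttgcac
Hoxa10, second window: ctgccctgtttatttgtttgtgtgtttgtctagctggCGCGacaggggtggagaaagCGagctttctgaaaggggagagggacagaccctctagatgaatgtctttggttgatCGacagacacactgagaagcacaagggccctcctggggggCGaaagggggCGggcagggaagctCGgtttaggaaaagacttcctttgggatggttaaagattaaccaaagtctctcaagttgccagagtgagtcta
Hoxa7: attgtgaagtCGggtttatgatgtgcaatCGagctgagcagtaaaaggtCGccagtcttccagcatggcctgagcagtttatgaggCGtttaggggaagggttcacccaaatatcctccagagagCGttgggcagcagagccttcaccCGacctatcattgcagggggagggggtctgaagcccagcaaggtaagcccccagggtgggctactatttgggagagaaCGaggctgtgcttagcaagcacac
Hoxd9: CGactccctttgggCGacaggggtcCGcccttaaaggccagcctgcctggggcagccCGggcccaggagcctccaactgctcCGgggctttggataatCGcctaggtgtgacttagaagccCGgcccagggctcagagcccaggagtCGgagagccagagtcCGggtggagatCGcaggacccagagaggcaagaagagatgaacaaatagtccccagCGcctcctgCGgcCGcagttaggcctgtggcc

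The first Hoxa10 window held 20 CpG, with an observed-over-expected ratio of 0.913, and the second held 7, with a ratio of 0.458. Hoxa7 held 7 (ratio 0.386), Hoxc4 held 8 (ratio 0.34) and Hoxd9 held 13 (ratio 0.49). Over the 21 Hox windows the median was 13 CpG with a ratio of 0.687, beside 6 CpG and 0.373 over all 32851 windows, and 11 of the 21 (52.4%) had a ratio above 0.6, beside 34% of all windows. On both strands, an E2F site (TTTCCCGC, TTTCGCGC, TTTGCCGC or TTTGGCGC) was in 0 of 21 Hox windows and in 1.86% of all windows. The shared Pbx and Hox site TGATTNAT was in 2 Hox windows, of Hoxa2 and Hoxd11 (9.52%, beside 2.82% of all windows), the retinoic acid half-site AGGTCA in 5 (23.8%, beside 14%) and the TATA box TATAAA in 2 (9.52%, beside 12.4%). These are matches of letters in a short window and say nothing of what binds there.

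Genes that act with or on Hox genes were examined next, from lists drawn up with earlier results of these data known, and were fitted with all 8 arrays only. Hox cofactors, the Pbx, Meis and related proteins that bind DNA with Hox proteins, showed no call with limma among 10 measured in any comparison. Between the recurred populations 3 of them had an unadjusted p under 0.05, beside 20.7% of all genes, and their median difference was 0.07. The furthest apart was Pknox2, with 1.27 (adjusted p = 0.281). In Cre Recurred against Cre Naïve cells, the smallest p values were those of Meis2 (-0.62, adjusted p = 0.39), Tgif1 (0.47, adjusted p = 0.40) and Pbx3 (-0.23, adjusted p = 0.57).

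Of 27 Polycomb genes, 2 were called between the recurred populations, both higher in Cre Recurred cells. These were Suz12 (0.67), a core subunit of the complex that methylates histone H3 lysine 27, and Pcgf6 (0.79), a subunit of a variant ubiquitin ligase complex. Pcgf6 was also higher in Cre Recurred than in Cre Naïve cells (0.65, adjusted p = 0.249), where Phf19 (-0.57) and Rnf2 (-0.34) followed without passing. Of 13 trithorax genes and H3K27 demethylases, Ash2l (0.65) and Dpy30 (0.62), shared subunits of the methylases of histone H3 lysine 4, were called higher between the recurred populations. Neither passed against Cre Naïve cells, with 0.38 and 0.46, and Men1 was at -0.35 there. The calls were thus 2 of 27 and 2 of 13 genes, to be read beside the 11.4% of all genes called in this comparison.

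Of 21 genes upstream of the clusters, 3 were called between the recurred populations, all lower in Cre Recurred cells, beside 6.55% of all genes called lower and 11.4% called either way. Of the 21, 13 were on the higher side, and the median difference was 0.08. The called genes were Rxra, Rarg and Cyp26b1. Rxra, the retinoid X receptor alpha, measured 7.02 and 7.45 in Cre Recurred cells and between 7.95 and 8.49 on the 6 other arrays, and differed by -1.22 (adjusted p = 0.04176). Rarg, a retinoic acid receptor, differed by -0.88 and Cyp26b1, which degrades retinoic acid, by -1.01. Rxra was also called lower in Cre Recurred than in Cre Naïve cells (-0.80, adjusted p = 0.2228), where Rarg (-0.70) and Cyp26a1 (0.70) did not pass.

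Transcription factors outside the clusters that mark position or mesoderm type held the most calls of the 6 lists. Of 34 measured, 11 were called between the recurred populations, 8 lower and 3 higher, beside 11.4% of all genes. Isl1, which starts the hind limb and marks heart progenitors, measured 8.68 and 8.90 in GFP Recurred and 4.03 and 3.54 in Cre Recurred cells, with 7.09 and 8.86 in GFP Naïve and 8.67 and 6.63 in Cre Naïve cells. The Cre Recurred arrays of Isl1 lay far below the other 6, with a difference of -5.0 (adjusted p = 0.04692). Foxf1, a factor of the mesoderm around the gut, measured 5.19 and 6.13 in Cre Recurred and 8.81 and 8.38 in GFP Recurred cells, and differed by -2.93 (adjusted p = 0.049). Tbx4, the hind limb T-box factor, differed by -1.85, Pax3, of the dermomyotome, by -2.39, Irx3 by -1.5, Foxd1 by -1.46, Gata4 by -1.10 and Hand2 by -0.83. Zic1 (3.42), Msx2 (2.03) and Gata6 (1.47) were higher. Zic1, like Hoxd9, was scattered among the naïve arrays, at 2.63 and 3.91 with RB and 3.23 and 5.82 without it.

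Against Cre Naïve cells, 2 of the 34 were called, beside 1.65% of all genes. These were Isl1 (-3.86, adjusted p = 0.1987) and Pitx1 (-1.61, adjusted p = 0.1736), a further hind limb factor. Pitx1 was at 7.14 and 8.01 in Cre Naïve and 5.72 and 6.19 in Cre Recurred cells. Hand2, at -1.13 against Cre Naïve cells, did not pass. In RB-proficient cells, in untreated cells and for the difference of the recurrence effects, limma called 0 genes of any of the 6 lists. In these 3 comparisons 5, 1 and 12 of the 34 positional factors had an unadjusted p under 0.05, beside 5.93%, 2.45% and 12.4% of all genes. Of 22 genes that flank the clusters, 3 were called lower between the recurred populations, beside 6.55% of all genes, namely Copz2 (-0.94) beside cluster B, Calcoco1 (-1.10) beside cluster C and Nfe2l2 (-0.70) beside cluster D. Against Cre Naïve cells Nfe2l2 (-0.56), Skap1 (0.51) and Skap2 (-0.35) had the smallest p values and none passed. The plot of the lists shows the Hox genes spread to both sides and the positional factors spread furthest.

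**Figure D4:**
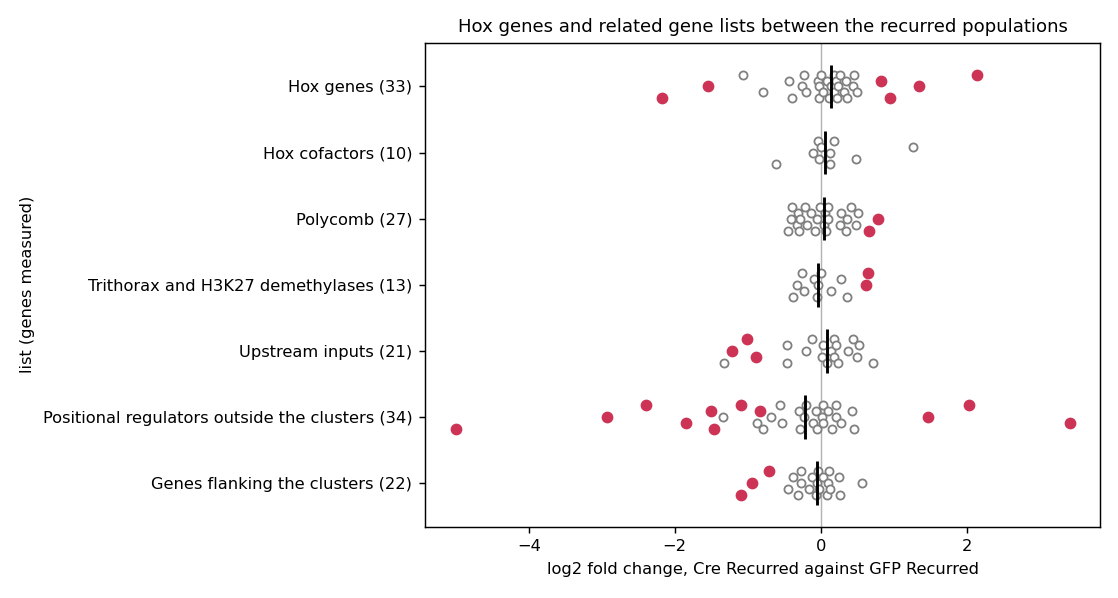
Each point is a gene, placed by its log2 fold change in Cre Recurred against GFP Recurred cells (horizontal), for the 33 Hox genes and the 6 lists (vertical, with the number measured). Filled points passed 1.5-fold and an adjusted p under 0.25 and bars are medians, and the lowest and highest points are Isl1 at -5.0 and Zic1 at 3.42.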

How the data were processed

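RNA of 4 populations was hybridized to Affymetrix Mouse Genome 430 2.0 arrays. As log2 values the authors deposited RMA signals, a procedure with background correction, quantile normalization and a summary of the probes, and these were used unaltered. Array medians ran from 5.37 to 5.41. Quantile normalization holds the arrays to 1 distribution, so differences are relative to the other genes of an array. The RMA software version is not given in the sources used here.

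Of 45101 probe sets, 64 controls were left out and 45037 were fitted, with no filter on low values, in limma 3.58.1 (R 4.3.3) with 1 mean per population (residual degrees of freedom 4, prior 3.07). Adjustment was by Benjamini-Hochberg over all 45037. Every member passed to the test. By the array annotation 34945 probe sets carried 1 symbol, 932 several and 9160 none. Members had 48 probe sets, 11 members having more than 1, and 3 probe sets with a Hox symbol among several symbols were not used. Chromosomes and promoter windows came from RefSeq (GRCm38.p6).

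The members, lists, tests and alternatives were chosen with earlier results of these data known. Values on every array are given for members called in any comparison or apart by 1.5-fold without overlap between the recurred populations or between Cre Recurred and Cre Naïve cells, and others are given by range and count. Of each list, every called gene and the 3 with the smallest p in Cre Recurred against Cre Naïve cells are named. Alternatives were a trended and robust prior, a SAM-type statistic written in R, the compared arrays alone, the replicate number as a block, cyclic loess, median centring, the 22518 probe sets above the median, the 36082 without suffixes for shared probes, gene means, and each array left out in turn. The alternatives for single members between the recurred populations were chosen after seeing the data. Figures were drawn with Python 3.11.15 and matplotlib 3.10.9.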

Additional observations from a re-analysis of the deposited data

How the results depend on the processing

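The count of 6 called members between the recurred populations ranged from 4 to 8 over the alternatives that kept all 8 arrays, or the 4 compared. It was 8 with the SAM-type statistic, which added Hoxa11 and Hoxc8, beside 14.4% of all genes. The share of all genes was 11.4% in the main fit. Without the suffixed probe sets Hoxa10 was left with its dim probe set and Hoxc4 fell short. The count was then 4, beside 2980 of 36082 probe sets. With an array left out it ranged from 0 to 7. For Cre Recurred against Cre Naïve cells the count with an array left out ranged from 0 to 3, beside 0 with all arrays. For GFP Recurred against GFP Naïve cells the SAM-type statistic gave 2, beside 1.2% of all genes. The untreated comparison gave 0 under every alternative run. For the difference of the recurrence effects, counts rose from 0 to 1 with a trended and robust prior (Hoxa10), 2 with median centring (Hoxa10 and Hoxc13), 2 among the probe sets above the median (Hoxa10 and Hoxc13) and 1 with gene means (Hoxc13), and ranged from 0 to 3 with an array left out. Calls over all probe sets went from 180 to 221, 248 and 208 under the first 3 of these. Without Cre Naïve replicate 1, the difference between Cre Recurred and Cre Naïve cells turned to -0.16 for Hoxc4 and to -0.16 for Hoxd9, from 0.31 and 0.65, and without Cre Naïve replicate 2 it was 0.78 and 1.46. None of these passed the test. The cause of these changes was not tested. With an array left out, its partner is assumed to vary like the other populations.

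Whether the replicate numbers pair the samples is not given by the labels. The deviations of same-numbered arrays correlated between -0.255 and 0.3069, which cannot decide it with 2 arrays a group. With a block for the replicate number, 5 members were called between the recurred populations, beside 11.9% of all genes. Hoxc4 fell short (limma adjusted p = 0.2879), and 0 members were called in each of the 4 other comparisons.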

Other observations

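Antisense transcripts of the clusters had probe sets of their own, 5 in all for Hoxa11os, Hoxb5os and Hoxd3os1. The brighter Hoxd3os1 probe set measured 8.39 and 5.98 in the GFP Naïve replicates, which lie further apart than the replicates of any other population, at 7.79 and 7.54 in Cre Naïve, 7.77 and 6.85 in GFP Recurred, and 6.73 and 7.50 in Cre Recurred cells. Hoxd3, Hoxd8 and Hoxd9 were lower on the same GFP Naïve replicate. The brighter Hoxa11os probe set measured 6.51 and 8.08 in GFP Naïve cells, where Hoxa11 measured 7.69 and 9.45. Hoxb5os was at 5.09 and 5.14 in Cre Recurred and 5.60 and 5.63 in GFP Recurred cells. Between the recurred populations the brighter probe sets differed by -0.18 for Hoxa11os, -0.49 for Hoxb5os and -0.19 for Hoxd3os1, and none passed 1.5-fold.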
